A study of Mus musculus with 14 samples.

Results

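Of the 14161 genes in the deposited table of mouse ventricle expression, 10 code for receptor chains of inflammatory cytokines, for the transcription factor STAT3 or for its inhibitor SOCS3. They were taken by symbol from a list chosen with earlier results of these data known. All 10 were present, and all 10 passed the filter on low values. They are the receptor genes Osmr, Il6st, Lifr, Il6ra, Il4ra, Il1r1, Tnfrsf1a and Tnfrsf12a, together with Stat3 and Socs3. Polyadenylated RNA of whole ventricles was read as paired ends from 14 male mice, 4 hours after an injection into the abdomen. The mice were 5 GX mice given the compound MRL5, 4 GX mice given its vehicle DMSO, 2 wild-type (WT) mice given MRL5 and 3 WT mice given DMSO. GX mice carry on both alleles a form of the cardiac sodium channel NaV1.5 that compounds of the GX family block, and MRL5 is one such compound, known by its code name. The sources used here give no age, strain or dose. The design text counts 4 GX mice with MRL5 and the sample labels 5, and all 5 were used. Mice are numbered within a group in the order of the records.

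Cytokines of the interleukin-6 family signal through receptor pairs that share the chain gp130, the product of Il6st. The ligand brings gp130 together with a partner chain, JAK kinases bound to the chains phosphorylate them, and STAT3 docks there, is phosphorylated and moves to the nucleus. Socs3 is among the genes that STAT3 switches on, and its product binds gp130 and ends the signal. In the heart this pathway is known for protecting cardiomyocytes under stress and for remodelling when it stays active. The other receptors here carry different signals: the IL-4 receptor acts mainly through STAT6, and the receptors for IL-1, TNF and TWEAK act mainly through NF-kappaB.

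The deposited values are a signal that the authors' header calls scaled reads per base. Column sums ran from 17244042 to 22163644. All 8 cardiomyocyte markers checked were present in each library. Summed leukocyte markers (8 of 8 present) lay between 3020 and 4926 in GX MRL5 and between 2858 and 4651 in GX DMSO. Summed neutrophil markers (3 of 4 in the table) lay between 15.7 and 60.8 in GX MRL5 and between 15.1 and 97.7 in GX DMSO. Summed erythroid markers (4 of 4) lay between 9853 and 19544 in GX MRL5 and between 8617 and 12243 in GX DMSO, and were above the GX DMSO range in all GX MRL5 libraries except GX MRL5 1. The part of these cells in the results below was not tested, and in whole tissue fewer cells of a type and less RNA per cell cannot be told apart. The library names hold a set number, 148 or 174, and set 174 holds only GX MRL5 4, WT DMSO 2 and WT DMSO 3. Summed atrial markers (2 of 3 in the table) were at 9643 in WT DMSO 2, against 40.5 and 60.6 in the other WT DMSO libraries, and its summed fibroblast markers (16458) were the highest of all libraries. Among GX libraries the atrial sum was at 1511 in GX DMSO 3 (group median 37.3) and at 398 in GX MRL5 4 (group median 45.9). GX MRL5 3 held the highest value of 6 of the 10 genes, and the share of all genes highest there was not computed.

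**Figure D1:**
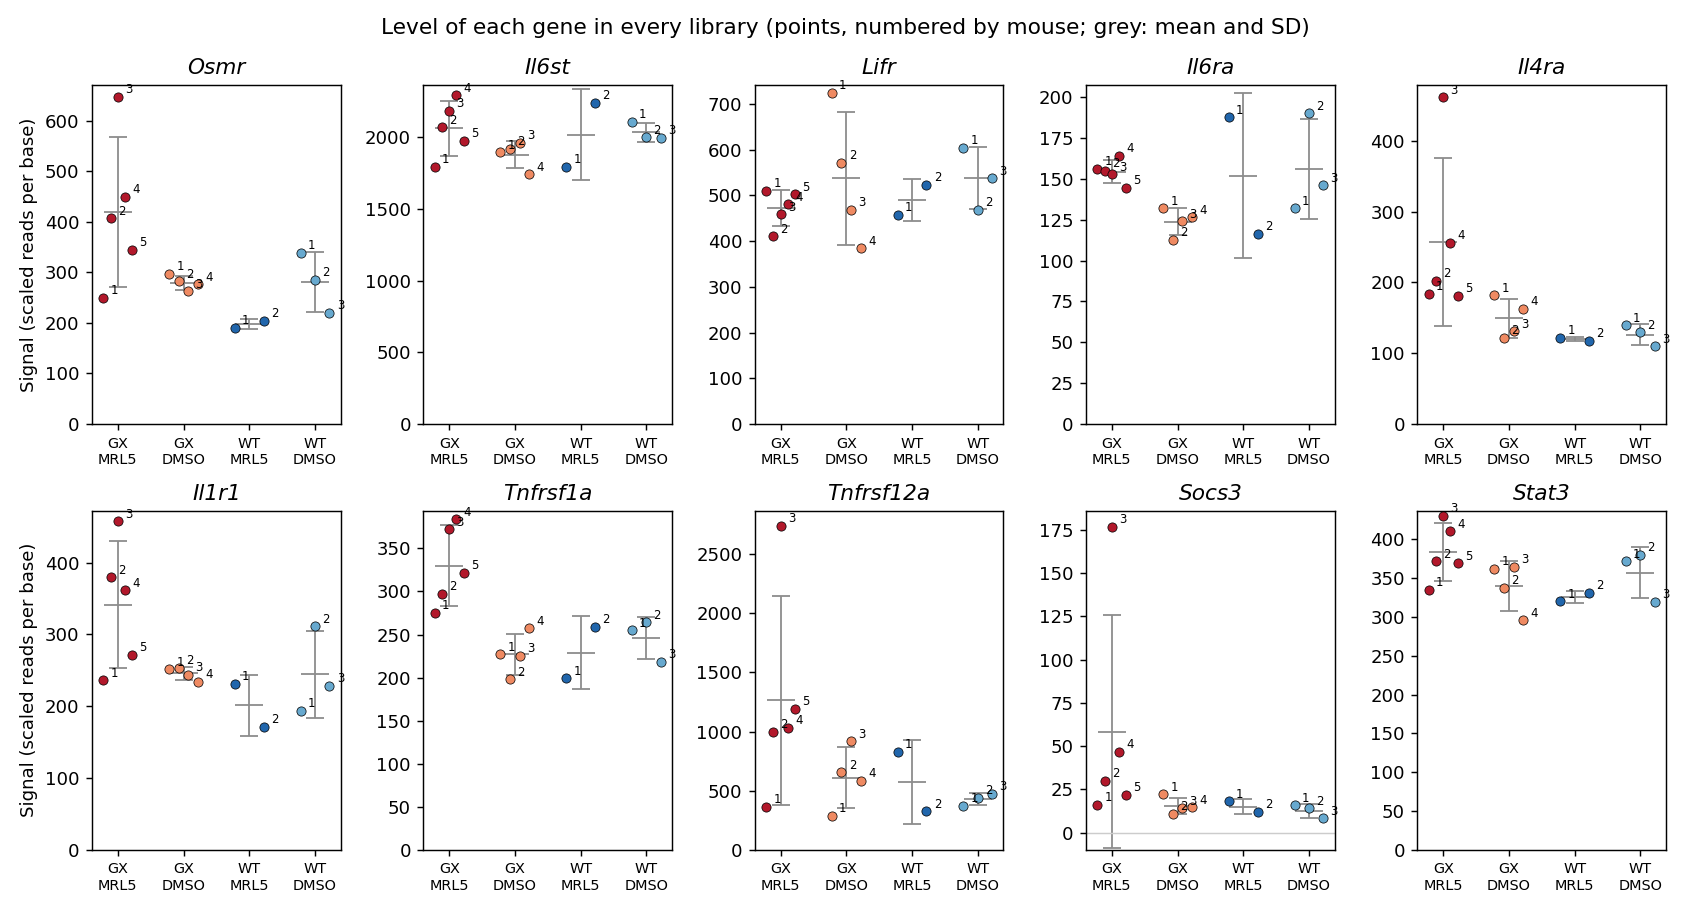
Signal of the 10 genes in every library, on linear axes in scaled reads per base. Points are mice, numbered within their group, and grey marks give the mean and SD. GX MRL5 3 held the highest Osmr (647), Il4ra (461), Il1r1 (457), Tnfrsf12a (2742), Socs3 (177) and Stat3 (430) values of all 14 libraries.

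The main comparison asks what MRL5 changes in ventricles whose channel it blocks. In GX mice 9 of the 10 genes had a positive log2 fold change of MRL5 against DMSO, against 51.5% of all 14156 genes tested. The median was 0.47 over the 10 genes and 0.0055 over all genes. Tnfrsf1a, Il4ra, Socs3, Osmr, Il1r1 and Il6ra, 6 of the 10, were higher at an unadjusted limma p under 0.05, and none was lower. Without GX MRL5 3, Osmr and Il1r1 no longer met that rule. Over all genes 4.13% met it, 2.71% higher and 1.42% lower. None of the 10 passed after Benjamini-Hochberg adjustment over all genes with limma (threshold 0.05, smallest adjusted p of a member = 0.999), and 0% of all genes did (585 at an unadjusted p under 0.05). The 10 genes were read from the same libraries, so their counts are not independent of each other. They were also chosen with earlier results of these data known. An excess over all genes, here and in the comparisons below, can therefore partly reflect that choice.

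Of the ligands of these receptors, 4 of the 10 looked for are in the table, namely Il1b, Il1a, Il4 and Tnfsf12. Il6, Osm, Lif, Il11, Il13 and Tnf were not analysed here. Il1b, the IL-1 beta gene, was at 3.62, 5.74, 52.7, 9.01 and 10.5 in GX MRL5 1 to 5, against 2.45, 2.02, 0.457 and 5.05 in GX DMSO 1 to 4. GX MRL5 3 was the highest, and GX MRL5 1 lay within the DMSO range. Il1b was at 4.66, 1.28 and 7.93 in WT DMSO 1 to 3 and at 8.20 and 4.07 in WT MRL5 1 and 2. GX MRL5 1 and 2 lay within the range of these WT mice. The log2 fold change of Il1b in GX against WT mice under MRL5 was 0.74 (SE 0.820). For MRL5 against DMSO in GX mice it was 1.88 (SE 0.657), and 1.32 without GX MRL5 3. At values this low the 1 added before taking logs shrinks fold changes. Tnfsf12, the gene of the Tnfrsf12a ligand TWEAK, had a log2 fold change of 0.22 (SE 0.114). Il1a was at 0.61 (SE 0.423) and Il4 at -0.61 (SE 0.512), and the highest library was at 21.3 for Il1a and 11.9 for Il4. Single libraries moved both: Il1a was at 0.40 without GX DMSO 2, and Il4 at -1.10 without GX DMSO 1, -0.39 without GX DMSO 4 and -0.29 without GX MRL5 4.

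Osmr (ENSMUSG00000022146.12, chromosome 15, 6813577 to 6874969, minus strand, GRCm38) codes for the chain that joins gp130 to bind oncostatin M. It was at 249, 407, 647, 449 and 345 in GX MRL5 1 to 5, against 297, 282, 262 and 276 in GX DMSO 1 to 4. All GX MRL5 libraries except GX MRL5 1 were above the highest GX DMSO library. Osmr averaged 420 ± 148 in GX MRL5 (SD, n = 5) and 279 ± 14.4 in GX DMSO (SD, n = 4). The log2 fold change was 0.52 (SE 0.206), and 0.34 without GX MRL5 3. In WT mice Osmr was at 190 and 205 with MRL5, against 338, 285 and 220 with DMSO, so that the MRL5 values were the lower ones and these groups did not overlap.

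Il6st (ENSMUSG00000021756.12, chromosome 13, 112464070 to 112510086, plus strand), the gene of the shared chain gp130, varied little. It lay between 1793 and 2292 in GX MRL5 (median 2069) and between 1742 and 1962 in GX DMSO (median 1906), and the groups overlapped. Its log2 fold change was 0.13 (SE 0.0857), with a 95% interval from -0.05 to 0.31. Lifr, on the plus strand of chromosome 15 (ENSMUSG00000054263.12, 7090614 to 7197489), codes for the gp130 partner that binds LIF and cardiotrophin-1. It lay between 411 and 510 in GX MRL5 and between 385 and 725 in GX DMSO, a wide range set at its upper end by GX DMSO 1. Its log2 fold change was -0.15 (SE 0.148, 95% interval from -0.47 to 0.17), 0.0082 without GX DMSO 1 and -0.30 without GX DMSO 4. Lifr was the only 1 of the 10 genes with a negative fold change in this comparison.

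The Osmr and Lifr genes lie 215644 bases apart on chromosome 15. The log2 ratio of Osmr to Lifr within a library does not depend on how libraries were scaled. It averaged -0.24 ± 0.578 (SD, n = 5) in GX MRL5, -0.91 ± 0.339 (SD, n = 4) in GX DMSO, -1.31 ± 0.0607 (SD, n = 2) in WT MRL5 and -0.95 ± 0.299 (SD, n = 3) in WT DMSO. GX MRL5 3, 2 and 4 were above each other library for this ratio, while GX MRL5 5 and GX MRL5 1 lay within the GX DMSO range. The ratio was chosen after the values were seen and is given as a description.

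Il6ra (ENSMUSG00000027947.11, chromosome 3, 89864059 to 89913196, minus strand) codes for the chain that binds IL-6 and then joins gp130. It was at 156, 155, 153, 164 and 145 in GX MRL5 1 to 5, against 132, 113, 124 and 126 in GX DMSO 1 to 4. The GX groups did not overlap, and GX MRL5 3 did not stand out for this gene. Its log2 fold change was 0.32 (SE 0.137), and 0.32 also without GX MRL5 3. It was at 188 and 116 in WT MRL5 and at 132, 190 and 146 in WT DMSO, and the GX MRL5 values lay within the range of these WT mice.

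**Figure D2:**
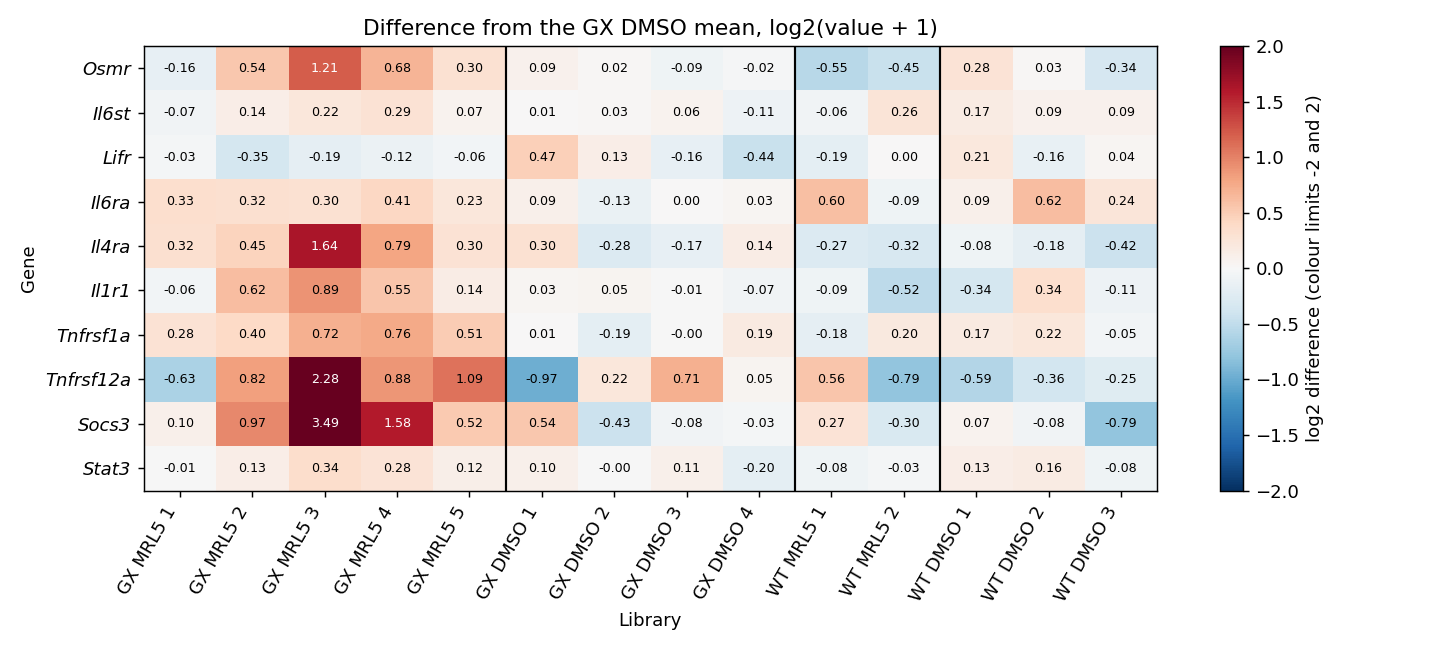
Difference of each gene in each library (columns) from the mean of the GX DMSO libraries, on log2(value + 1), with colours limited at -2 and 2. Socs3 was 3.49 above that mean in GX MRL5 3 and 0.10 above it in GX MRL5 1.

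The receptor genes outside the gp130 family had higher means in GX mice with MRL5 than with DMSO. Tnfrsf1a (ENSMUSG00000030341.17, chromosome 6, 125349362 to 125362484, plus strand), the gene of the main TNF receptor with a death domain, was at 275, 298, 372, 384 and 321 in GX MRL5 1 to 5, against 227, 198, 225 and 257 in GX DMSO 1 to 4. Each GX MRL5 library was above each GX DMSO library, GX MRL5 1 included. Such a gap upwards was seen for 0.713% of all genes, and among the 10 for Tnfrsf1a and Il6ra, 2 of 10. The log2 fold change of Tnfrsf1a was 0.53 (SE 0.123), and 0.49 without GX MRL5 3. Its unadjusted p was the smallest of the 10 genes. In the authors' deposited table Tnfrsf1a had p = 1.64e-05 and q = 0.0757 in GX mice, and the other 9 genes each had q = 1.00 after rounding in that table.

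Il4ra (ENSMUSG00000030748.9, chromosome 7, 125552120 to 125579474, plus strand), the gene of the signalling chain for IL-4 and IL-13, was at 184, 202, 461, 256 and 181 in GX MRL5 1 to 5, against 182, 121, 131.1 and 163 in GX DMSO 1 to 4. GX MRL5 3 was far above the rest, and GX MRL5 5 lay at the upper end of the DMSO range. The log2 fold change was 0.70 (SE 0.23) and 0.47 without GX MRL5 3. Il1r1 (ENSMUSG00000026072.12, chromosome 1, 40225080 to 40317257, plus strand), the gene of the signalling receptor for IL-1, was at 236, 379, 457, 361 and 271 in GX MRL5 1 to 5, against 251, 254, 244 and 234 in GX DMSO 1 to 4. GX MRL5 1 lay within the DMSO range, and the other 4 were above it. The log2 fold change was 0.43 (SE 0.182), and 0.32 without GX MRL5 3.

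Tnfrsf12a (ENSMUSG00000023905.15, chromosome 17, 23675445 to 23677468, minus strand) codes for Fn14, the receptor for TWEAK, which is known to be induced by growth factors and injury. It was at 363, 997, 2742, 1034 and 1195 in GX MRL5 1 to 5, against 286, 655, 918 and 581 in GX DMSO 1 to 4. GX MRL5 2, 3, 4 and 5 were above the DMSO range and GX MRL5 1 was in its lower part. The log2 fold change was 0.89 (SE 0.496), 0.54 without GX MRL5 3 and 0.56 without GX DMSO 1. It was 1.27 without GX MRL5 1.

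Stat3 (ENSMUSG00000004040.16, chromosome 11, 100885098 to 100939540, minus strand) differed little. It was at 335, 372, 430, 411 and 369 in GX MRL5 1 to 5, against 362, 338, 365 and 296 in GX DMSO 1 to 4. Its log2 fold change was 0.17 (SE 0.0955), with a 95% interval from -0.03 to 0.38. Leaving out GX DMSO 4 gave 0.11, and leaving out GX MRL5 3 gave 0.13. These are RNA levels, and phosphorylated STAT3 was not measured. Annotated genes overlap Stat3 (Stat5a on the other strand), Il6ra, Il4ra and Il1r1, and the sources used here do not say how reads shared by such genes were assigned.

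Socs3 (ENSMUSG00000053113.3, chromosome 11, 117966079 to 117970047, minus strand), the inhibitor and STAT3 target, had the largest fold change of the 10 genes in this comparison. It was at 16.03, 30.01, 177, 46.5 and 21.8 in GX MRL5 1 to 5, against 22.1, 10.7, 14.0 and 14.5 in GX DMSO 1 to 4. GX MRL5 2, 3 and 4 were above the DMSO range, and GX MRL5 1 and 5 were within it. Socs3 averaged 58.2 ± 67.2 in GX MRL5 (SD, n = 5) and 15.3 ± 4.80 in GX DMSO (SD, n = 4). The log2 fold change was 1.33 (SE 0.527), 0.79 without GX MRL5 3 and 0.53 without GX MRL5 3 and GX MRL5 4.

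The promoter windows of the 10 genes were read from RefSeq on GRCm38.p6, from 250 bases before to 50 bases after a transcription start, for 12 windows in all. The STAT motif TTCNNNGAA, which reads the same on both strands, was in 2 of these 12 windows and in 8.3% of all 32851 windows. The NF-kappaB motif GGG, any 2 bases, then TTTCC, searched on both strands, was in 1 of the 12 and in 1.63% of all. Shown are the 3 windows that hold a match, since these genes were among the 6 with an unadjusted p under 0.05. Capitals mark the match, and the lines read 5′ to 3′ on the strand of the gene. Socs3 (chr11:117969317-117969616, minus strand) holds the STAT motif 154 bases before the start, and Tnfrsf1a (chr6:125349473-125349772, plus strand) holds it 244 bases before. Il4ra (chr7:125552021-125552320, plus strand) holds the NF-kappaB motif on the opposite strand, 20 bases after the start. These RefSeq starts lie 681 bases (Socs3), 361 bases (Tnfrsf1a) and 151 bases (Il4ra) downstream of the GENCODE M21 gene starts. A match describes the letters only and is not a binding site.
Socs3: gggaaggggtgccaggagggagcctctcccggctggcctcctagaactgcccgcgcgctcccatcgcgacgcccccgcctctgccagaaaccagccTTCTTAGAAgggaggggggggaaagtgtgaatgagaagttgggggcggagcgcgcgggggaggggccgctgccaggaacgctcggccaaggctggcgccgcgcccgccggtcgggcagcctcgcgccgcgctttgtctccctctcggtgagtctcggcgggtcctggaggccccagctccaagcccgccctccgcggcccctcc
Tnfrsf1a: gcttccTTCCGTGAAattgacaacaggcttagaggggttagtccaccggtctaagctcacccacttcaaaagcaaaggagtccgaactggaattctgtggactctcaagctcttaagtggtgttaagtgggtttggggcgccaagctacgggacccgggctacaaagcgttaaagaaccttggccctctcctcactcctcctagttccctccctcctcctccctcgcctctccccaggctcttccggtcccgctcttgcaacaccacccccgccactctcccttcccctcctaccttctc
Il4ra: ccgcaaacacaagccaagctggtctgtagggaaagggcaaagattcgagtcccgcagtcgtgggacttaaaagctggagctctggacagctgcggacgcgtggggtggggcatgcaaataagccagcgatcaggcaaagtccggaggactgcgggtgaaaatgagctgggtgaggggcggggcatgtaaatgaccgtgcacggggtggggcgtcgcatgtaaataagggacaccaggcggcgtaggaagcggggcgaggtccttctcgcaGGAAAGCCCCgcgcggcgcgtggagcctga

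The mice differed in how far these genes were from the vehicle range. GX MRL5 2, 3 and 4 each had 9 of the 10 genes above the highest GX DMSO library, GX MRL5 5 had 7 and GX MRL5 1 had 3, namely Il6ra, Il4ra and Tnfrsf1a. The share of all genes was not computed for these counts, so they cannot be read as particular to the 10 genes. The median log2 difference of the 10 genes from the GX DMSO mean was highest in GX MRL5 3 at 0.81. It was 0.62 for the library GX MRL5 4 and 0.42 for GX MRL5 2. GX MRL5 5 had a median of 0.26, and that of GX MRL5 1 was -0.02. The coefficient of variation between mice was higher in GX MRL5 than in GX DMSO for 8 of the 10 genes (share of all genes not computed), and lower for Lifr and Il6ra. It was for Osmr 35.3% in GX MRL5 and 5.15% in GX DMSO, for Il1r1 25.9% and 3.60% in the same groups, and for Socs3 115% and 31.3%. Stat3 had nearly equal values, 9.74% in GX MRL5 and 9.40% in GX DMSO. For Lifr it was 8.44% in GX MRL5 and 27.2% in GX DMSO, and for Il6ra 4.54% in GX MRL5 and 6.60% in GX DMSO. Without GX MRL5 3 the median fold change of the 10 genes was 0.33 and 4 genes had an unadjusted p under 0.05. Without GX MRL5 4, the only library of set 174 in this comparison, 3 did, and without GX DMSO 3 also 3. Leaving out every library of set 174 left 2 (Tnfrsf1a and Il4ra). The GX fold changes were then the same as without GX MRL5 4 alone, since the other libraries of that set are WT. As GX MRL5 4 is the only GX library of set 174, this mouse and its set cannot be told apart.

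**Figure D3:**
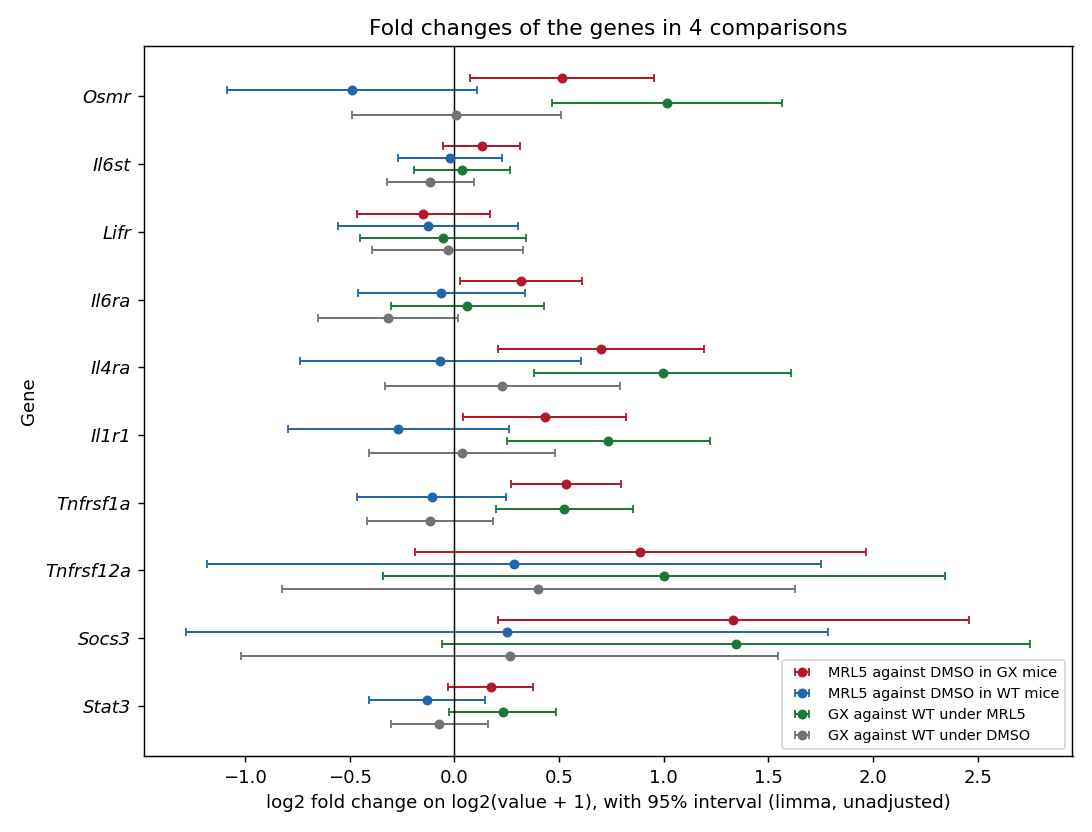
Log2 fold changes of the 10 genes on log2(value + 1) in 4 comparisons, with unadjusted 95% intervals from limma. In GX mice (red) Tnfrsf1a was at 0.53 and Socs3 at 1.33, and none of the points passed after adjustment over all genes.

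In WT mice, whose channel lacks the GX change, the 10 genes did not share a direction upwards. Positive fold changes of MRL5 against DMSO were found for 2 of 10 genes (49.7% of all genes), with a median of -0.09. None had an unadjusted p under 0.05, against 5.64% of all genes (2.9% higher and 2.74% lower), and 0 of 14156 genes passed with limma (799 at an unadjusted p under 0.05). Fold changes ran from -0.49 for Osmr (SE 0.28) to 0.29 for Tnfrsf12a (SE 0.675), whose value was -0.39 without WT MRL5 1, 0.96 without WT MRL5 2 and 0.19 without WT DMSO 1. The gap of Osmr downwards is of a kind seen for 9.66% of all genes in groups of 2 and 3 mice, and gaps upwards were seen for none of the 10 and 9.56% of all genes. No WT MRL5 library and 2 of the 3 WT DMSO libraries are of set 174. The fold change of Osmr was -0.54 with library set as a covariate and -0.78 within set 148, which leaves 1 WT DMSO library. In the authors' deposited table Osmr had p = 0.0357 and q = 0.999 in WT mice, with an effect of -0.34 on the natural log scale, against an effect of 0.36 in GX mice.

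Under vehicle, the median fold change of GX against WT was -0.01 and 5 of 10 were positive (46.6% of all genes). None had an unadjusted p under 0.05, against 5.67% of all genes (2.95% higher and 2.72% lower), and 0 genes passed with limma (802 at an unadjusted p under 0.05). Fold changes ran from -0.32 for Il6ra (SE 0.156) to 0.40 for Tnfrsf12a (SE 0.565). That of Il6ra was -0.17 without WT DMSO 2, the WT DMSO library with the highest Il6ra and atrial marker values. The Tnfrsf12a value was 0.17 without GX DMSO 3 and 0.73 without GX DMSO 1. Il6st was at 1742 to 1962 in GX DMSO and at 1995 to 2108 in WT DMSO, without overlap, as were 4.02% of all genes in that direction. None of the 10 was without overlap upwards, against 3.4% of all genes. All GX DMSO libraries but just 1 WT DMSO library belong to set 148, so set and genotype cannot be fully told apart here.

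Between the genotypes under MRL5, the fold change of GX against WT was positive for 9 of the 10 genes (49.4% of all genes), with a median of 0.63. Osmr, Il4ra, Il1r1 and Tnfrsf1a had an unadjusted p under 0.05 and were higher, 4 of 10 against 3.6% of all genes (6.58% in both directions). None was lower (2.99% of all genes), and none of the 10 passed after adjustment with limma (smallest adjusted p of a member = 0.65, with 0 of all genes called and 932 at an unadjusted p under 0.05). Osmr was at 249 to 647 in GX MRL5 and at 190 and 205 in WT MRL5, a log2 fold change of 1.01 (SE 0.256), which was 0.84 without GX MRL5 3. Il4ra ranged from 181 to 461 in GX MRL5, against 122 and 118 in WT MRL5, with a log2 fold change of 1.00 (SE 0.287), which was 0.76 without GX MRL5 3. Il1r1 lay between 236 and 457 in GX MRL5, against 231 and 171 in WT MRL5, a difference of 0.74 (SE 0.227). That difference was 0.52 without WT MRL5 2 and 0.95 without WT MRL5 1. Tnfrsf1a had a log2 fold change of 0.53 (SE 0.153), which was 0.34 without WT MRL5 1 and then no longer under the unadjusted threshold. That of Stat3 was 0.23 (SE 0.119). These 5 genes did not overlap between the groups, as was the case upwards for 4.76% of all genes. Downwards it held for none of the 10 and 4.49% of all genes. Tnfrsf12a was at 1.00 (SE 0.619), at 0.33 without WT MRL5 2, at 0.65 without GX MRL5 3 and at 1.68 without WT MRL5 1. Socs3 was at 1.35 (SE 0.657), and at 0.81 without GX MRL5 3. Il6ra (0.06, SE 0.171), Il6st (0.04, SE 0.107) and Lifr (-0.05, SE 0.185) had fold changes near 0, and the sign of each depended on which of the WT MRL5 mice was used. Il6ra was at 0.41 without WT MRL5 1 and at -0.28 without WT MRL5 2, Il6st at -0.12 and 0.19, and Lifr at -0.15 and 0.04, in the same order.

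An interaction term tested whether MRL5 against DMSO differed between GX and WT mice. This comparison uses the same libraries as those above. It was positive for 9 of 10 genes (52.2% of all genes), with a median of 0.62. Osmr (1.00, SE 0.347), Tnfrsf1a (0.64, SE 0.208) and Il1r1 (0.70, SE 0.307) had an unadjusted p under 0.05, all positive, 3 of 10 against 3.09% of all genes. In both directions 6.39% of all genes met that rule, and 3.29% were negative, with none of the 10 among them. None passed after adjustment with limma (adjusted p = 0.755 for these 3 genes, with 0 of all genes called and 904 at an unadjusted p under 0.05). Without GX MRL5 3, Il1r1 was at 0.58 and no longer under the unadjusted threshold. The value was 0.77 (SE 0.389) for Il4ra, or 0.53 without GX MRL5 3. It was 1.08 (SE 0.889) for Socs3, or 0.54 without GX MRL5 3, and 0.30 (SE 0.161) for Stat3. In WT mice MRL5 against DMSO was at -0.49 (SE 0.28) for Osmr, -0.27 (SE 0.248) for Il1r1 and -0.11 (SE 0.167) for Tnfrsf1a. Part of the interaction value of each of these 3 genes came from those negative WT fold changes, none of which had an unadjusted p under 0.05. For Il1r1, WT DMSO 2, the library with the highest atrial marker sum, was at 311, against 193 and 228 in WT DMSO 1 and 3. WT MRL5 1 and 2 were at 231 and 171.

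**Figure D4:**
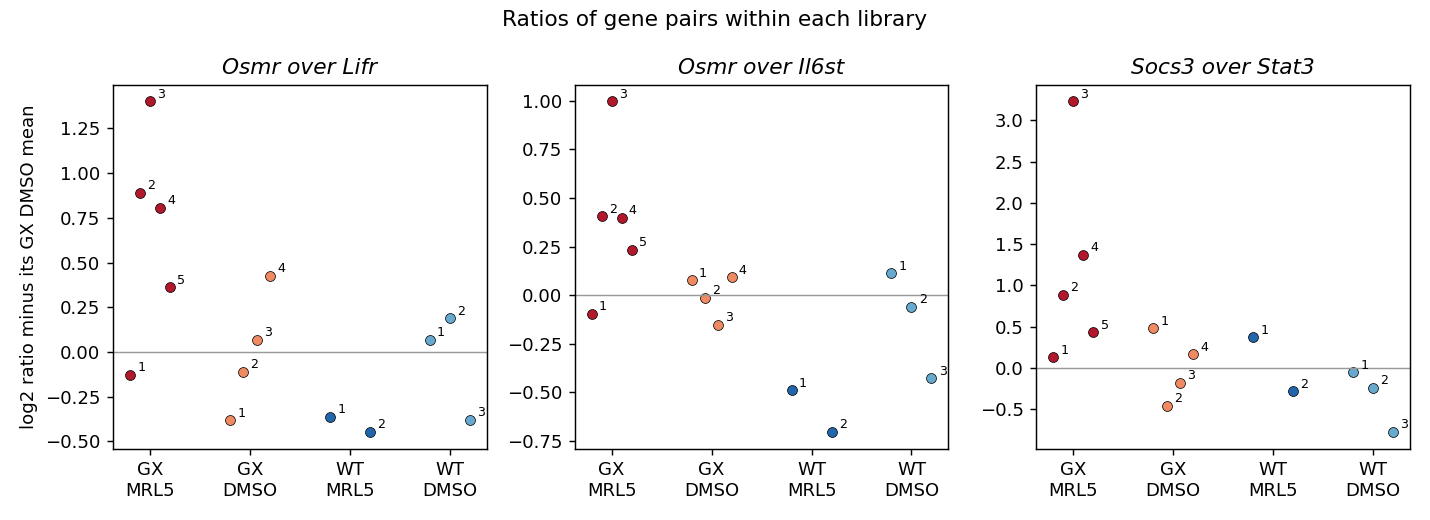
Log2 ratio of 2 genes within each library, minus its mean over the GX DMSO libraries, which is independent of scaling between libraries. For Osmr over Lifr GX MRL5 3 was at 1.40 and GX MRL5 1 at -0.13, and for Socs3 over Stat3 they were at 3.23 and 0.13.

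Other genes of the same pathways were read from lists, which were chosen with earlier results of these data known. None of their genes passed in GX mice with MRL5 against DMSO after adjustment. Of 29 genes known as STAT3 targets, 24 were tested, and 8 were higher and none lower at an unadjusted p under 0.05 (2.71% and 1.42% of all genes). The list's median fold change was 0.37, with Lcn2, an iron-binding acute phase protein, at 1.87 (SE 0.341) and the metallothionein Mt2 at 1.65 (SE 0.393). Lcn2 was at 103, 170 and 181 in WT DMSO 1 to 3, against 37.4 to 70.5 in GX DMSO. It was at 95.8, 161, 229, 386 and 215 in GX MRL5 1 to 5, so GX MRL5 1 and 2 were not above the WT DMSO range. Mt2 was at 1342, 1722 and 751 in WT DMSO 1 to 3, against 546 to 1183 in GX DMSO and 1093 to 3880 in GX MRL5. Under the same rule of an unadjusted p under 0.05, 2 of 24 tested JAK-STAT genes were higher and none lower, with a median of 0.0099. These were the feedback inhibitor genes Cish (0.56, SE 0.186) and Socs2 (0.52, SE 0.191), which are best known as STAT5 targets. Without GX DMSO 2, Socs2 was at 0.28 and no longer met that rule. Cish was at 1849 to 3158 in GX MRL5 and at 1134 to 1917 in GX DMSO, with GX MRL5 5 the highest, whereas Socs3 was highest in GX MRL5 3. In WT DMSO 1 to 3 Cish was at 2089, 2247 and 2680, and Socs2 at 330, 346 and 387. For both genes these values were above each GX DMSO library. Of the GX MRL5 libraries, only GX MRL5 5 was above the WT DMSO range for Cish.

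Of the IL-1 family list, 2 of 17 tested genes were higher and none lower at an unadjusted p under 0.05 (2.71% and 1.42% of all genes), 14 had a positive fold change, and the median was 0.14. They were Il1b and Irak3, an inhibitory kinase relative of the IL-1 and Toll-like receptor pathway. Irak3 was at 143, 153, 154, 167 and 129.3 in GX MRL5 1 to 5, against 121, 114, 101 and 106 in GX DMSO 1 to 4, without overlap. Its log2 fold change was 0.43 (SE 0.127), and 0.55 (SE 0.158) in GX against WT mice under MRL5. No gene had an unadjusted p under 0.05 among 23 tested genes of the TNF and TWEAK list (median 0.07), among 8 of the gp130 family list (median 0.03, with Il11ra1, the IL-11 receptor, at -0.12, SE 0.0965, or -0.07 without GX DMSO 4 and -0.08 without GX MRL5 5) or among 5 of the IL-4 and IL-13 list (median -0.05). Il13ra1, which pairs with the IL-4 receptor chain, was at 0.14 (SE 0.0991) in this comparison, at 0.06 without GX DMSO 3 and at 0.09 without GX MRL5 3, and at 0.32 (SE 0.124) in GX against WT mice under MRL5.

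The genes whose levels were most like those of Socs3 over the 14 libraries were Icam1, an adhesion molecule for leukocytes that is also on the STAT3 target list, Adamts4, a protease of matrix proteoglycans, and Sbno2. Their Pearson r with Socs3 on the log2 scale was 0.966, 0.962 and 0.960 in that order, and 0.831, 0.803 and 0.785 over 12 libraries without GX MRL5 3 and GX MRL5 4, the farthest from the Socs3 median. Adamts4 was at 326 in GX MRL5 3, at 10.1 to 32.1 in the other GX MRL5 libraries and at 10.1 to 14.9 in GX DMSO. For Osmr the most alike were Amot (r = 0.941), Eif1a (0.917) and Egr3 (0.906), with r of 0.851, 0.820 and 0.768 over the same 12 libraries. Spearman's rho was 0.846, 0.807 and 0.833 for the Socs3 genes and 0.925, 0.881 and 0.868 for the Osmr genes. These are the highest of 14156 genes searched, with predicted and clone-named genes skipped. The libraries are shared by all genes, and the values are a description with no test.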

How the data were processed

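The deposited signal values are scaled reads per base, 1 per gene and library, per the file headers. How they were scaled is not stated, so levels of different genes were not compared, except as ratios within a library. Such a ratio can be read only by how it differs between libraries. The tools named are kallisto and sleuth 0.3.0 and the build is GRCm38, per the submitters' processing notes. For the MRL5 comparison within GX and within WT mice, the authors' deposited table gives a p-value, a q-value and an effect, taken here to be on the natural log scale that sleuth uses. The depth is unknown from these values, and the number of mice limits the precision.

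Of 14307 entries, 146 with values identical to an earlier entry were left out, and 22 symbols turned into dates were restored. Genes with a value of at least 1 in at least 2 libraries were tested (14156). Genes were compared on log2(value + 1) by limma 3.58.1 (R 4.3.3), with trend and robust variance, 1 mean per group over all 14 libraries, no covariate and 10 residual degrees of freedom. A count test had been planned for the case of counts and was not used, since the values are not counts. Tests were two-sided, with Benjamini-Hochberg adjustment over all genes tested. Fold changes of low genes are understated on this scale. Intervals of 95% are limma's, unadjusted. Levels are means ± SD. The labels give each library its own mouse; replicate numbers only name mice.

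The 10 genes and the pathway lists were chosen with earlier results of these data known. Genes outside the 10 were named by a rule: ligands of the receptors in the table, the 3 genes per list with the smallest p in 2 comparisons (some of these are not named), and the 3 genes most alike to Socs3 and to Osmr. The search for alike genes skipped predicted and clone-named genes. Alternatives were other scalings, filters, a pseudocount of 0.1, other variance settings, library set or set and index as covariates, set 148 only, only the groups compared, and each library left out; leaving out GX MRL5 3 with GX MRL5 4 was added after seeing the data. The fit was also run on simulated data, in which genes varied independently and with the same spread in all groups. That run does not cover libraries in which many genes move together, or a spread that differs between groups. Positions are from GENCODE M21, promoters from RefSeq (GRCm38.p6).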

Additional observations from a re-analysis of the deposited data

Results flagged for a closer look

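Values of single libraries were compared with their group for the 10 genes in the groups of 4 and 5 mice, 20 groups in all, of which chance singles out about 1 in 20. In both cases found, GX MRL5 3 lay far above the other GX MRL5 libraries. Il4ra was at 461.3 there, and the next highest GX MRL5 library was at 256. Socs3 was at 176.7 there, and the next highest was at 46.5. Without this library the log2 fold change of MRL5 against DMSO in GX mice was 0.47 for Il4ra and 0.79 for Socs3.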

How the results depend on the processing

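No paired analysis was possible because replicate numbers were assigned by record order and link no mouse to another. None of the 10 genes passed after adjustment in any of the 5 comparisons under any alternative. Of 1067 single-gene values under alternatives, 1057 kept their direction and their side of the threshold and 10 changed sign. This count says little about stability. No gene was near the adjusted threshold in the fit reported. Leaving out a library outside a comparison could not move its fold change. Sizes and unadjusted p-values moved more, as given with the genes. The count of the 10 genes with an unadjusted p under 0.05 in GX mice was 6 in the fit reported. It was 2 in set 148 alone, 2 without GX MRL5 3 and GX MRL5 4 together, and 3 to 8 with 1 library left out. The median fold change there was 0.27 without both libraries and 0.33 to 0.57 with 1 left out. For GX against WT under MRL5 that count was 4, and 3 to 7 with 1 library left out (7 without GX MRL5 1). The median there was 0.46 without both libraries and 0.43 to 0.72 with 1 left out, lowest without WT MRL5 2. For the interaction the count was 3, with 1 when set and index were covariates and 2 to 5 with 1 library left out. Its median was 0.39 in set 148, 0.32 without both libraries and 0.41 to 0.76 with 1 left out. The cause was not tested.

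Over all genes, the number called with 1 library left out ran from 0 to 2 for MRL5 in GX mice, 0 to 58 for MRL5 in WT mice, 0 to 1 for genotype under DMSO, 0 to 63 for genotype under MRL5 and 0 to 27 for the interaction, each of the 3 highest without WT MRL5 2, which leaves a lone library assumed to vary like the other groups. Without GX MRL5 3 and GX MRL5 4 the number was 1 for MRL5 in GX mice and 1 for genotype under DMSO. It was 1 for genotype under MRL5 with only the groups compared, and 1 for the interaction with equal column sums. That scaling moved the median of all genes under DMSO to -0.11.

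Signs changed for genes near 0, and for Tnfrsf12a in WT mice, where the 2 WT MRL5 libraries differed widely. Under MRL5 the fold change of Il6st between genotypes was -0.0068 with equal column sums, -0.0042 in set 148, -0.047 without GX MRL5 3 and GX MRL5 4, and -0.12 to 0.19 with 1 library left out. That of Il6ra was -0.016 with set and index as covariates and -0.28 to 0.41 with 1 left out, and that of Lifr -0.15 to 0.041. With 1 left out, Lifr in GX mice ran from -0.30 to 0.0082. Tnfrsf12a in WT mice was at 0.29 (SE 0.675) in the fit reported and ran from -0.39 to 0.96. Its level was 828 in WT MRL5 1 and 325 in WT MRL5 2.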
